A study of Mus musculus with 20 samples.

Results

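The genes described here are the 8 core genes of mitochondrial iron-sulfur (Fe–S) cluster assembly namely *Nfs1*, *Lyrm4*, *Iscu*, *Fdx1*, *Glrx5*, *Isca1*, *Isca2* and *Nfu1*, out of 46078 genes in the deposited liver count table. They were chosen by name, though with earlier results of these data known, and all 8 had enough counts to be tested. Fe–S clusters are cofactors of respiratory complexes, lipoate synthase and several DNA- and RNA-handling enzymes. Their sulfur comes from cysteine: the desulfurase NFS1, held stable by LYRM4, removes it from the amino acid and passes it to the scaffold ISCU, where it meets iron and electrons from a ferredoxin. GLRX5 then carries the first cluster onward, ISCA1 and ISCA2 take part in building the larger cubane clusters, and NFU1 hands these to recipients such as lipoate synthase.

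The livers were from 20 male mice on a 129/C57BL/6 background, at least 9 weeks old. The mice had been calorie-restricted on control diet and were then shifted to their diet, still under calorie restriction, with collection on day 2. *Cse* encodes the enzyme of the last step by which the liver makes its own cysteine, and animals without it depend on the cysteine they eat. Of the *Cse*+/- mice, 2 received the control diet, 4 a diet lacking cysteine (no-Cys) and 3 a diet lacking tryptophan (no-Trp). Of the *Cse*-/- mice, 4 received no-Cys, 3 no-Trp, and 4 no-Trp together with l-buthionine sulfoximine (BSO), which blocks the first step of glutathione synthesis. The sample labels call the control genotype WT, whereas the study's list of mice gives it as heterozygous, and that list, with its mouse numbers av01 to av22, assigned the columns to groups. The deletion is carried in all cells, no *Cse*-/- liver under control feeding was analysed here, and the control group holds 2 mice.

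*Cth*, the symbol of *Cse* in the table, was at 6.37 to 14.4 CPM (the gene's share of the library's counts, scaled with edgeR's TMM factors) in the *Cse*-/- livers and at 88.4 to 332 CPM in the *Cse*+/- livers. Libraries of the no-Cys groups held 11785740 to 15436551 counts on genes and the others 14054270 to 57986121. Summed over 5 hepatocyte markers, the level was 82170 to 105700 CPM in no-Cys *Cse*+/- and 37970 to 65120 CPM in no-Cys *Cse*-/- mice, with 4 of the 5 called lower, including *Alb*, and *Cps1* called higher. The sum over 3 erythroid markers was 172 to 363 CPM in the former and 59.4 to 101 CPM in the latter, with all 3 called lower. The sums over endothelial and stellate markers were 104 to 123 and 204 to 245 CPM in *Cse*+/-, and 101 to 117 and 172 to 209 CPM in *Cse*-/- mice. Of the 4 endothelial markers *Lyve1* was called higher (1.15, edgeR adjusted p = 2.2e-04), and of the 4 stellate markers *Lrat* was called lower (−0.61, edgeR adjusted p = 0.0133). Cholangiocyte markers summed to 7.39 to 15.3 CPM in *Cse*+/- and 4.60 to 8.26 CPM in *Cse*-/- mice, with *Sox9* called lower (edgeR adjusted p = 0.0464), and lymphocyte markers to 6.93 to 11.7 and 6.02 to 7.55 CPM, with *Ptprc* called lower (edgeR adjusted p = 0.0442). No marker of Kupffer cells or neutrophils was called. The part of these shifts in the results below was not tested. In whole liver, fewer cells of a type and less RNA per cell cannot be told apart. Mouse av08 stood apart from the other no-Cys *Cse*-/- mice, with 65120 CPM of hepatocyte markers against 37970 to 41400 CPM, and 13.3 CPM of *Cth* against 6.37 to 7.04 CPM. Among the no-Cys *Cse*+/- mice, av01 had 332 CPM of *Cth* against 121 to 132 CPM in the other 3.

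As depth sets the precision of each value, the raw counts behind the members are given first. *Lyrm4* had the fewest, with 81 to 520 counts per library, and *Isca2* followed with 296 to 1837. *Glrx5* had 1588 to 10994 counts and *Fdx1* 1093 to 6243. Per kilobase of annotated exon, *Glrx5* had the highest mean level over the 20 livers, at 45.2 ± 4.11 CPM per kilobase (SD, n = 20), followed by *Iscu* at 44.0 ± 3.01 and *Fdx1* at 40.5 ± 9.24. *Isca2* was at 16.9 ± 1.49, *Nfs1* at 11.99 ± 0.940 and *Nfu1* at 8.30 ± 0.545 CPM per kilobase. *Isca1*, at 4.84 ± 0.414, and *Lyrm4*, at 4.51 ± 0.890 CPM per kilobase, were lowest. Thus transcripts of the scaffold stood above those of the desulfurase in every liver. Neighbours that changed places between livers were *Glrx5* and *Iscu*, with *Glrx5* higher in 13 of 20 livers, *Iscu* and *Fdx1*, with *Iscu* higher in 12 of 20, and *Isca1* and *Lyrm4*, with *Isca1* higher in 13 of 20. All other neighbours kept their order in 20 of 20 livers. These levels divide by the length of all annotated exons together, which is 10680 bases for *Isca1*, so that a gene whose liver transcript is shorter than that is placed too low.

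Most members varied little across genotypes and diets. From the lowest to the highest liver, CPM differed by 1.26-fold for *Iscu*, 1.28-fold for *Nfu1*, 1.37-fold for *Glrx5*, 1.38-fold for *Nfs1*, 1.40-fold for *Isca1* and 1.43-fold for *Isca2*. The range was 2.12-fold for *Lyrm4* and 2.47-fold for *Fdx1*. On the log2 CPM scale the SD over 20 livers was 0.0959 for *Nfu1* and 0.0969 for *Iscu*, and only 0.983% and 1.08% of the 14759 genes tested had a smaller one. For *Nfs1*, *Isca2*, *Isca1* and *Glrx5* that share was between 2.91% and 5.93%. It was 49.99% for *Lyrm4* and 64.3% for *Fdx1*. Such an SD also holds counting error, which is larger in genes of few counts, and it is given as a description.

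**Figure D1:**
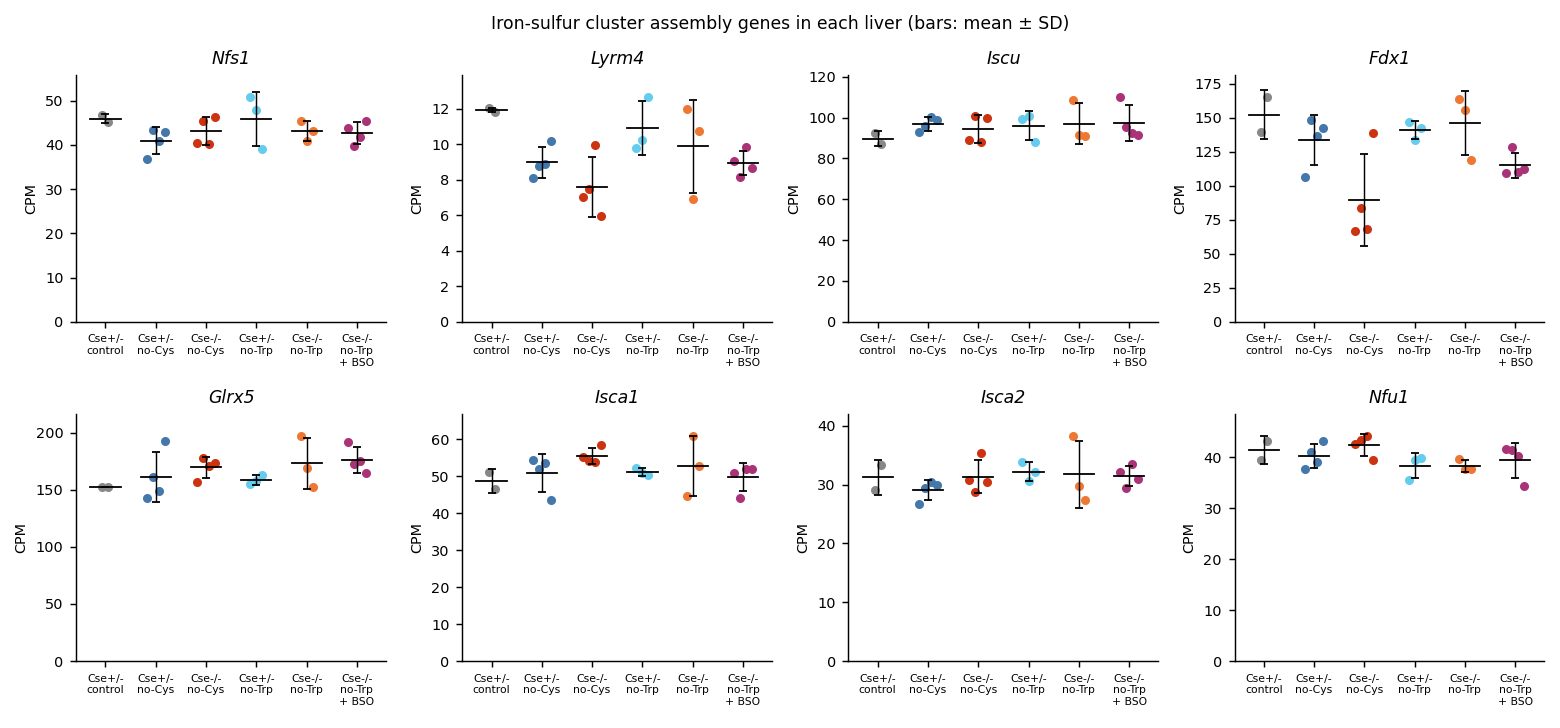
CPM of each of the 8 genes (y axis, from 0) in each of the 20 livers, by genotype and diet (x axis). Points are mice and lines are the group mean ± SD. *Fdx1* is at 66.8 to 83.9 CPM in 3 of the 4 no-Cys *Cse*-/- mice and at 139 CPM in the other, while the points of *Nfs1*, *Iscu* and *Nfu1* lie in narrow bands.

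The main comparison set *Cse*-/- against *Cse*+/- mice on the no-Cys diet. Neither group was fed cysteine, and the groups differed in whether they could make it through CSE. A genotype difference under control feeding would be part of this contrast, as no *Cse*-/- liver under that feeding was analysed here. Of the 8 genes, *Fdx1* fell and the other 7 were not called. A gene is called here when its edgeR quasi-likelihood adjusted p, corrected over all genes tested, is under 0.05, which held for 23.8% of all genes in this comparison. No member had groups that did not overlap, as 23.2% of all genes had. The median log2 fold change of the members was 0.07, against −0.0093 over all genes.

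*Fdx1* (ENSMUSG00000032051, chromosome 9 of GRCm38, 51943306 to 51963556, minus strand) encodes a mitochondrial ferredoxin, which donates electrons to mitochondrial cytochromes P450 and to lipoate synthesis. Its levels were 107, 148, 137 and 142 CPM in *Cse*+/- mice and 66.8, 83.9, 67.8 and 139 CPM in no-Cys *Cse*-/- mice (133.5 ± 18.5 and 89.3 ± 33.8 CPM, SD, n = 4 each). The first 3 *Cse*-/- mice lay below every other liver of the series, and av08 lay within the *Cse*+/- range, so that the groups overlapped. The log2 fold change was −0.58 (standard error 0.178, 95% interval −0.95 to −0.21, edgeR adjusted p = 0.0230), that is 0.668-fold. Without av08, the mouse of this group with the most hepatocyte marker RNA, it was −0.88 (edgeR adjusted p = 9.43e-05), and without av01, the *Cse*+/- mouse with the most *Cth*, it was −0.68 (edgeR adjusted p = 0.0126). The call was lost when any of av02, av04, av05, av06 or av07 was left out (−0.56 to −0.45, edgeR adjusted p between 0.0507 and 0.0913) and in a fit of only these groups (−0.59, edgeR adjusted p = 0.0752).

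No stretch of 61 bases in *Fdx1* transcripts occurs in another annotated gene. The promoter of *Fdx1* is shown because it is the member that changed, and that of *Isca1* because it holds motif letters while its level was not called. Both are RefSeq sequences on GRCm38.p6, given 5′ to 3′ on the strand of the gene, as the part upstream of the start that holds no annotated exon. Capitals mark letters of the antioxidant response element, TGACNNNGC on either strand. Letters of the CARE (TGATGNAAN on either strand), bound by the stress response factor ATF4, were searched for as well, and were not in either window. The *Fdx1* stretch lies at chr9:51963603-51963852 and the *Isca1* stretch at chr13:59769859-59769964, both on the minus strand.

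Fdx1: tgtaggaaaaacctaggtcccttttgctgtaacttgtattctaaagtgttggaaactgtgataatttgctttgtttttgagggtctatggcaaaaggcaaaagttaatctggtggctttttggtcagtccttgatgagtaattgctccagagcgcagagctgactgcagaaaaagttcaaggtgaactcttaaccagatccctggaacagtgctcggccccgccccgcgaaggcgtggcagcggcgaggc
Isca1: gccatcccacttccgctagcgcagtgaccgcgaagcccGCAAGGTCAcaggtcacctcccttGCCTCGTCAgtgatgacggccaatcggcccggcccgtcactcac

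Of the 8 members, 7 had a promoter in the RefSeq table, *Iscu* being the other. Antioxidant letters were found in *Nfs1*, at 244 and 205 bases before the start, and in *Isca1*, at 137 and 113 bases before it, all on the strand opposite the gene. Of the other mitochondrial assembly genes searched, described below, *Bola1* held them, at 46 bases before the start on the strand of the gene. *Bola1* was called higher in the main comparison. Such letters were in 12.4% of all 32851 promoters and CARE letters in 3.95%. TGAC also begins sites of other factors, and these matches are a description of the sequence only.

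The desulfurase and its partner come first in the pathway. *Nfs1* (ENSMUSG00000027618, chromosome 2, 156123639 to 156144186, minus strand), the cysteine desulfurase, was at 36.8, 43.3, 40.8 and 43.0 CPM in no-Cys *Cse*+/- and 40.4, 45.3, 40.3 and 46.2 CPM in no-Cys *Cse*-/- mice. The groups overlapped, and the log2 fold change was 0.07 (95% interval −0.11 to 0.25, edgeR adjusted p = 0.603), which bounds the difference between 0.924-fold and 1.19-fold. Of its 61-base words, 7.92% also occur in *Gm28036* or *Romo1*. *Lyrm4* (ENSMUSG00000046573, chromosome 13, 35978395 to 36117526, minus strand), which encodes the partner of NFS1, was at 8.11, 8.75, 8.87 and 10.2 CPM in *Cse*+/- and 7.02, 7.48, 9.93 and 5.98 CPM in *Cse*-/- mice. Of these, 3 *Cse*-/- mice lay below all 4 *Cse*+/- mice and av07 within their range. The log2 fold change was −0.24 (95% interval −0.59 to 0.11, edgeR adjusted p = 0.317). This is the widest interval among the 7 uncalled members, and *Lyrm4* also has the lowest counts.

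*Iscu* (ENSMUSG00000025825, chromosome 5, 113772748 to 113778288, plus strand), the scaffold on which the first cluster forms, was at 92.7, 96.1, 100.5 and 98.9 CPM in *Cse*+/- and 89.0, 101, 88.3 and 99.6 CPM in no-Cys *Cse*-/- mice. The groups overlapped, with a log2 fold change of −0.04 (95% interval −0.22 to 0.14, edgeR adjusted p = 0.771). *Glrx5* (ENSMUSG00000021102, chromosome 12, 105032688 to 105042906, plus strand), the glutaredoxin that carries the cluster from the scaffold, was at 143, 161, 149 and 192 CPM in *Cse*+/- and 156.5, 178, 170.4 and 173 CPM in *Cse*-/- mice. Its *Cse*+/- values spanned all of the *Cse*-/- values, and the log2 fold change was 0.07 (95% interval −0.13 to 0.27, edgeR adjusted p = 0.624).

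Of the late-acting genes, *Isca1* (ENSMUSG00000044792, chromosome 13, 59755409 to 59769810, minus strand) was at 54.5, 51.9, 53.7 and 43.5 CPM in *Cse*+/- and 55.3, 54.2, 53.9 and 58.5 CPM in no-Cys *Cse*-/- mice. *Isca2* (ENSMUSG00000021241, chromosome 12, 84773251 to 84775088, plus strand) was at 26.7, 29.4, 30.5 and 30.0 CPM in the former and 30.8, 28.7, 35.4 and 30.5 CPM in the latter. *Nfu1* (ENSMUSG00000029993, chromosome 6, 87009236 to 87028461, plus strand) was at 37.6, 41.1, 39.1 and 43.1 CPM in *Cse*+/- and 42.6, 43.4, 44.1 and 39.3 CPM in *Cse*-/- mice. All 3 overlapped between genotypes. The log2 fold changes were 0.12 for *Isca1*, 0.11 for *Isca2* and 0.07 for *Nfu1* (edgeR adjusted p = 0.356, 0.468 and 0.528), with 95% intervals that reached no higher than 0.32, 0.31 and 0.24 and no lower than −0.07, −0.10 and −0.09. Shared 61-base words made up 13% of *Isca1*, 8.73% of *Iscu* and 1.16% of *Nfu1*, and none of *Isca2* or *Glrx5*.

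The remaining genes of the mitochondrial pathway, 13 in number, were looked at from a list of names. In the main comparison 6 were called higher and none lower, against 11.6% of all genes called higher, and 6 were called without av08 or without av01 as well. All 6 had groups that did not overlap, which was the case in this direction for 12% of all genes. The list's median log2 fold change was 0.26. *Hspa9* encodes mortalin, the mitochondrial HSP70 chaperone that also works on ISCU. It was at 550, 503, 517 and 560 CPM in *Cse*+/- and at 1167, 1346, 1258 and 861 CPM in no-Cys *Cse*-/- mice. It rose by 1.122 log2 units (edgeR adjusted p = 2.07e-06), or 2.18-fold, with av08 the lowest of the 4. *Bola1*, a mitochondrial BolA protein that binds GLRX5, went from 21.5 ± 4.04 to 34.7 ± 2.88 CPM (SD, n = 4 each), a rise of 0.69 (edgeR adjusted p = 4.97e-04). *Iba57*, the partner of ISCA1 and ISCA2, went from 12.2 ± 2.87 to 18.5 ± 2.51 CPM (0.59, edgeR adjusted p = 0.0132). On the control diet *Iba57* was at 15.35 and 15.66 CPM, above every no-Cys *Cse*+/- mouse. Its mean in no-Trp *Cse*-/- mice was 18.4 CPM, near that of the no-Cys *Cse*-/- mice. *Hspa9* was at 566 and 592 CPM and *Bola1* at 20.5 and 25.1 CPM on the control diet.

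*Nubpl*, an assembly factor for the clusters of complex I, went from 11.8 ± 1.66 to 16.5 ± 0.759 CPM (SD, n = 4 each; 0.49, edgeR adjusted p = 0.0149), a call lost without av02 (edgeR adjusted p = 0.0520). *Slc25a28*, which encodes the iron importer mitoferrin-2, went from 31.6 ± 4.39 to 44.1 ± 1.77 CPM (0.48, edgeR adjusted p = 8.12e-04). On the control diet *Slc25a28* was at 36.2 and 41.0 CPM and *Nubpl* at 12.1 and 13.4 CPM. *Fdx2*, the ferredoxin that acts in cluster assembly itself, is described with *Fdx1* below. The other 7 of the 13 were not called, with log2 fold changes from −0.06 (*Slc25a37*) to 0.26 (*Hscb*).

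**Figure D2:**
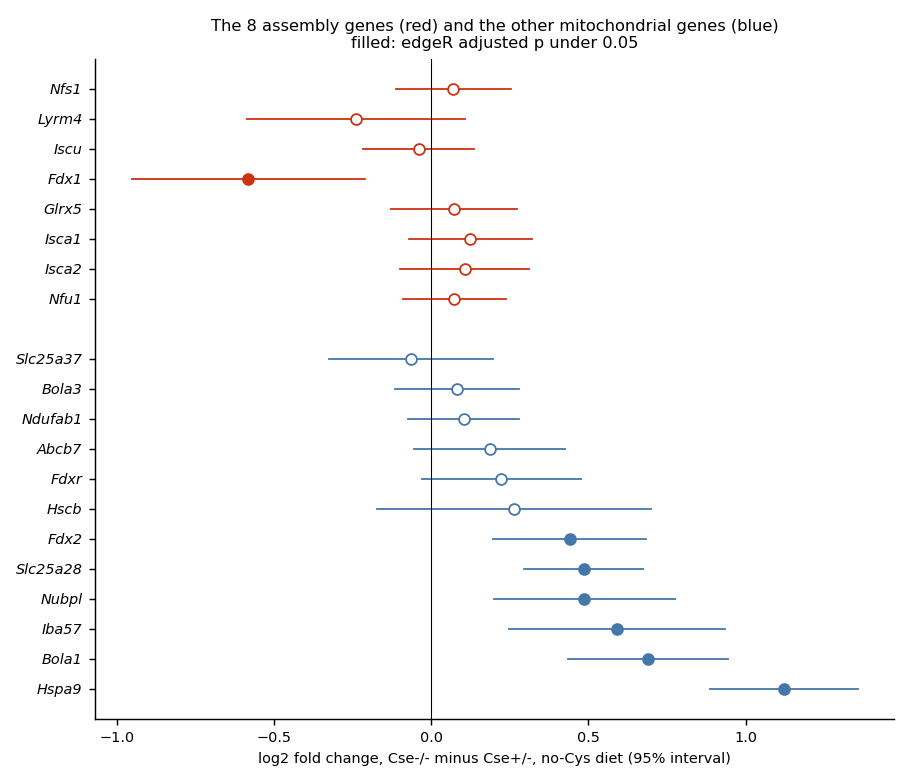
Log2 fold change (x axis) of *Cse*-/- over *Cse*+/- mice on the no-Cys diet with its 95% interval, for the 8 members (red) and 12 of the 13 other mitochondrial genes (blue), 1 gene per row. Filled points are called by edgeR. Among the members only *Fdx1* is filled, to the left of 0, and 6 of the other genes are filled, all to the right.

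**Figure D3:**
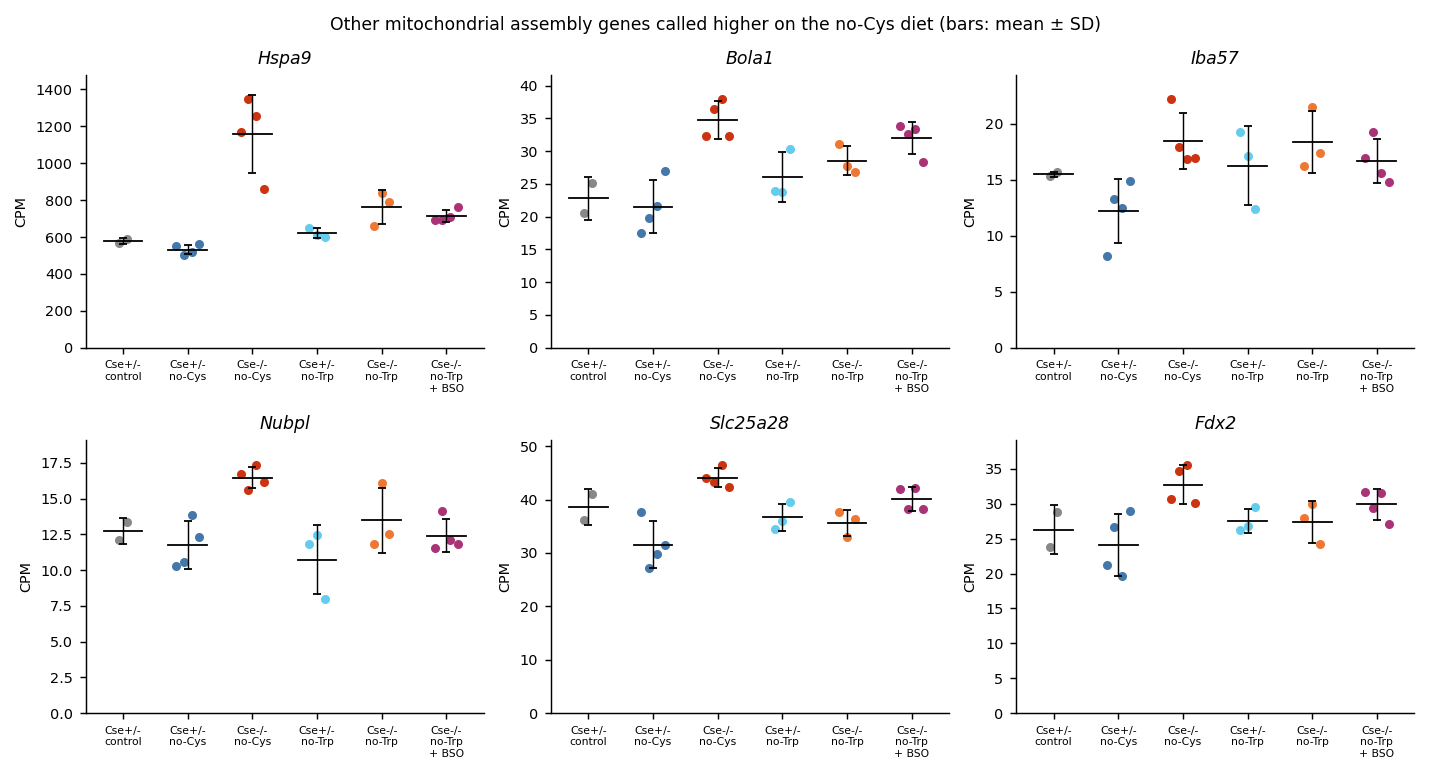
CPM (y axis, from 0) of the 6 other mitochondrial genes that were called higher, in each of the 20 livers by group (x axis). Points are mice and lines are the mean ± SD. In each panel the 4 no-Cys *Cse*-/- mice lie above the 4 no-Cys *Cse*+/- mice.

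*Fdx1* and *Fdx2* encode the pair of mitochondrial ferredoxins and moved in opposite directions. *Fdx2* (listed as *Fdx1l*, chromosome 9, 21067520 to 21073614, minus strand) was at 21.3, 26.7, 19.6 and 28.9 CPM in *Cse*+/- and at 30.7, 34.7, 35.6 and 30.1 CPM in no-Cys *Cse*-/- mice. The groups did not overlap, and *Fdx2* rose by 0.44 (SE 0.116, edgeR adjusted p = 0.00944). Of its 61-base words 69.7% also occur in *Gm38431* or *Gm49373*, annotated genes that are not rows of the count table. The ratio of *Fdx1* to *Fdx2* CPM, chosen after the values were seen and given without a test, was 5.01, 5.56, 6.98 and 4.91 in the *Cse*+/- mice and 2.17, 2.42, 1.90 and 4.61 in the *Cse*-/- mice. It was 3.44, 4.39, 3.47 and 4.14 in BSO-treated *Cse*-/- mice, and 4.82 to 5.86 in the 8 remaining livers.

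**Figure D4:**
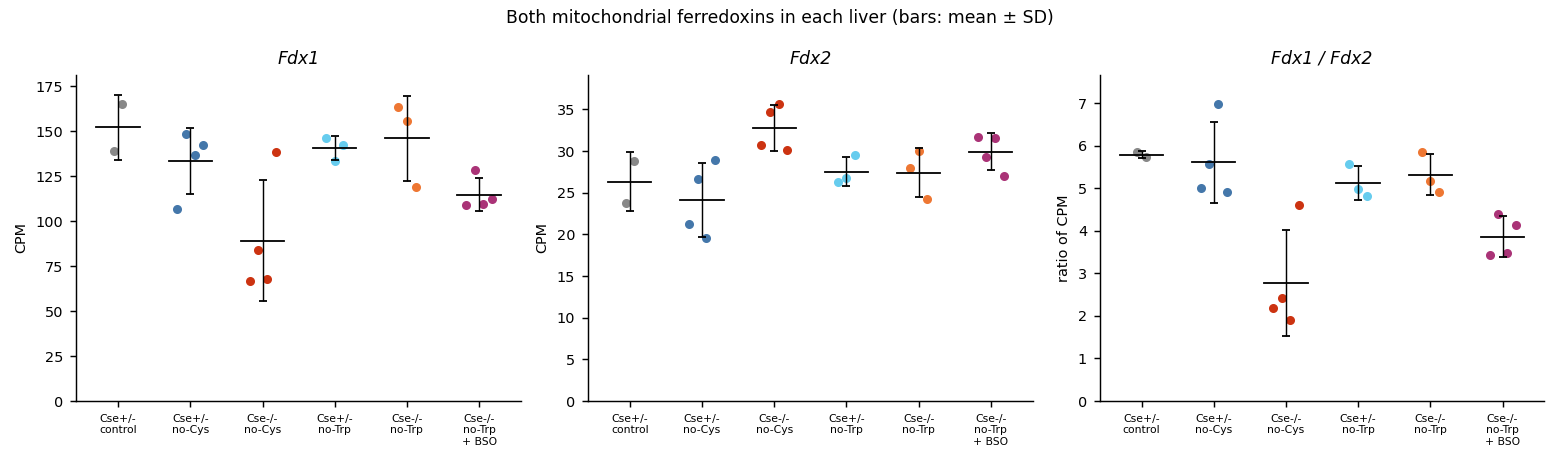
CPM of *Fdx1* and of *Fdx2* and the ratio between them (y axes, from 0) in each liver, by group (x axis). Points are mice and lines are the mean ± SD. The ratio is lowest, at 1.90 to 2.42, in 3 no-Cys *Cse*-/- mice, and av08 of that group is at 4.61.

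The other comparisons ask whether the changes go with the missing cysteine rather than with the loss of any essential amino acid or of glutathione. Among *Cse*-/- mice, the no-Cys diet against the no-Trp diet again gave a call for *Fdx1* and for none of the other 7 members (10.4% of all genes were called). *Fdx1* was at 164, 155 and 119 CPM on the no-Trp diet (146 ± 23.7 CPM, SD, n = 3). Without dietary cysteine it fell by 0.71 (log2; standard error 0.190, edgeR adjusted p = 0.0226). Hepatocyte markers moved with it, at 61540 to 67720 CPM in sum on the no-Trp diet, with 3 of the 5 called lower on the no-Cys diet, as did 1 of the 3 erythroid markers, whose sum was 101.3 to 155 CPM on the no-Trp diet. Their part in this difference was not tested. The call was lost without av05, av06, av07, av14 or av15 (edgeR adjusted p between 0.0517 and 0.106) and in a fit of only these groups (edgeR adjusted p = 0.120), and without av08 the value was −1.005 (edgeR adjusted p = 1.25e-04). This comparison shares its no-Cys mice with the main one. *Lyrm4*, at 11.96, 6.92 and 10.8 CPM on the no-Trp diet, had a log2 fold change of −0.38 (edgeR adjusted p = 0.163) and was called without av15 (−0.58, edgeR adjusted p = 0.0283). Of the 13 other mitochondrial genes, *Hspa9* alone was called (0.60, edgeR adjusted p = 0.00484).

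BSO lowers glutathione while dietary cysteine stays. Under BSO on the no-Trp diet, *Fdx1* was at 109, 129, 110 and 112 CPM (115 ± 9.31 CPM, SD, n = 4). These values lie above those of 3 of the 4 no-Cys *Cse*-/- mice. Against the no-Trp diet alone the log2 fold change was −0.35 (95% interval −0.74 to 0.05, edgeR adjusted p = 0.460), and no member was called by edgeR or DESeq2, nor at an unadjusted p under 0.05 (0.793% of all genes were called). Between the no-Cys diet and the no-Trp diet with BSO, the log2 fold change of *Fdx1* was −0.36 (95% interval −0.74 to 0.01, edgeR adjusted p = 0.258). No member was called by edgeR or DESeq2 there either, nor at an unadjusted p under 0.05, and edgeR called 2.75% of all genes. Without av08, *Fdx1* was called in this comparison (−0.66, edgeR adjusted p = 0.00464). Here too 3 of the 5 hepatocyte markers were called lower on the no-Cys diet, with sums of 58200 to 73560 CPM under BSO, and their part was not tested. *Isca1* was the member whose groups did not overlap, at 53.9 to 58.5 CPM on the no-Cys diet and 44.1 to 52.0 CPM with BSO (0.16, edgeR adjusted p = 0.357), which holds for 12.7% of all genes. *Hspa9* was called higher on the no-Cys diet (0.70, edgeR adjusted p = 0.00473), at 691 to 761 CPM with BSO.

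Genotype made no called difference to the members on the no-Trp diet. There *Fdx1* was at 146, 134 and 142 CPM in *Cse*+/- mice, within the range of the *Cse*-/- mice, with a log2 fold change of 0.05 (95% interval −0.37 to 0.48, edgeR adjusted p = 0.922). None of the 8 was called by edgeR or DESeq2 or had an unadjusted p under 0.05, against 2.64% of all genes called. The lowest of the 8 values was −0.13 (*Lyrm4*) and the highest 0.13 (*Glrx5*). Whether genotype acted differently on the 2 diets was tested as an interaction, the genotype difference on the no-Cys diet minus that on the no-Trp diet. For *Fdx1* this was −0.64 (95% interval −1.20 to −0.07, edgeR adjusted p = 0.197), and no member passed with edgeR or DESeq2, 1 having an unadjusted p under 0.05 (4.36% of all genes were called). Without av08 the interaction of *Fdx1* was −0.93 and was called (edgeR adjusted p = 0.00433). Of the 13 other mitochondrial genes, *Hspa9* (0.82, edgeR adjusted p = 0.00993) and *Slc25a28* (0.52, edgeR adjusted p = 0.0363) passed. In the same test 2 of 5 hepatocyte markers and 1 of 3 erythroid markers were called lower, and 1 of 4 endothelial markers higher. Their part was not tested.

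In *Cse*+/- mice, which can make cysteine, neither diet led to a call of a member. *Fdx1* was at 139 and 165 CPM on the control diet, with a log2 fold change of −0.19 on the no-Cys diet (edgeR adjusted p = 0.710) and −0.11 on the no-Trp diet (edgeR adjusted p = 0.925). On the no-Cys diet *Nfs1*, *Iscu* and *Lyrm4* had groups that did not overlap, as did 25.6% of all genes with these group sizes. *Lyrm4*, at 12.02 and 11.8 CPM on the control diet, had a log2 fold change of −0.41 (edgeR adjusted p = 0.300), *Nfs1*, at 46.6 and 45.2 CPM, −0.16 (edgeR adjusted p = 0.462), and *Iscu*, at 92.3 and 87.2 CPM, 0.11 (edgeR adjusted p = 0.631). On the no-Trp diet *Glrx5*, at 155 to 163 against 152.4 to 153 CPM, had groups that did not overlap (0.05, edgeR adjusted p = 0.938), as did 27.4% of all genes. The calls over all genes were 2.18% on the no-Cys diet and 0.0474% on the no-Trp diet. In both comparisons none of the 8 members was called by edgeR or DESeq2 or had an unadjusted p under 0.05, and both share the same 2 control mice. Of the 13 other mitochondrial genes *Fdxr*, the reductase that passes electrons to the ferredoxins, was called lower on the no-Cys diet, at 35.0 ± 2.68 against 51.5 ± 1.05 CPM (SD, n = 4 and 2; −0.56, edgeR adjusted p = 0.0494), and this call was lost in 14 of the 20 fits that left out 1 mouse.

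**Figure D5:**
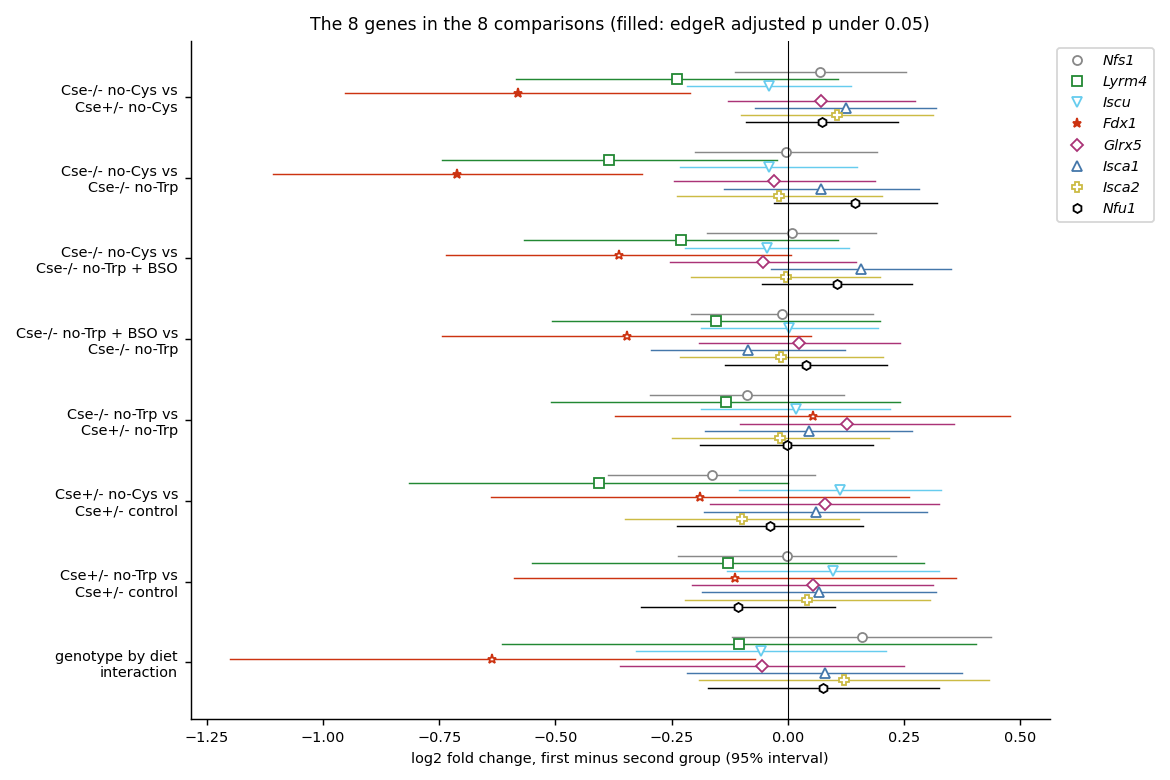
Log2 fold change of each member, first minus second group, with its 95% interval (x axis), in the 7 comparisons of groups and the interaction (y axis). Each colour and symbol is a gene, and filled symbols are called by edgeR. *Fdx1* is filled in both comparisons in the upper rows, at −0.58 and −0.71, and no other symbol is filled.

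Genes that lie downstream of the members were looked at from lists of names. Of 11 genes of the cytosolic assembly machinery, which passes clusters to cytosolic and nuclear proteins, *Nubp1*, a scaffold of that machinery, was called higher in the main comparison and none lower, against 11.6% of all genes called higher and 12.2% called lower. *Nubp1* went from 10.3 ± 0.260 to 13.3 ± 1.41 CPM (SD, n = 4 each; 0.38, edgeR adjusted p = 0.0133). Among 13 mitochondrial Fe–S proteins, 2 were called higher, a share near the 11.6% of all genes, and none lower. The median was 0.09. Among these, *Cdk5rap1*, which modifies mitochondrial tRNAs, was called higher with groups that overlapped (1.02, edgeR adjusted p = 0.0160), and was not called without av07 (0.68, edgeR adjusted p = 0.0833).

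Cytosolic and nuclear Fe–S proteins changed in both directions: of 18 tested, 6 were called higher and 3 lower, with a median of 0.12, against 11.6% of all genes called higher and 12.2% lower. The aldehyde oxidase genes moved apart. *Aox1* rose from 53.4 ± 6.14 to 124.5 ± 3.37 CPM (SD, n = 4 each; 1.22, edgeR adjusted p = 7.57e-05), and *Aox3* fell by 0.70, from 288 ± 43.7 to 178 ± 39.9 CPM (edgeR adjusted p = 0.0168), a call lost without av02, av05 or av07 (edgeR adjusted p between 0.0504 and 0.0602). *Abce1*, a ribosome recycling factor, rose by 0.49 and *Tyw1*, a tRNA-modifying enzyme, by 0.40 (edgeR adjusted p = 0.00225 and 0.0173), the latter not called without av04 or av05 (edgeR adjusted p = 0.0541 and 0.0511). *Ercc2*, a DNA helicase, was called higher (0.37, edgeR adjusted p = 0.0429), at 7.62 ± 0.873 against 5.90 ± 0.218 CPM, a call that DESeq2 did not make (DESeq2 adjusted p = 0.0582) and that was lost without av01, av02, av03, av04, av05, av07, av08 or av12 (edgeR adjusted p between 0.0512 and 0.104). It was at 7.85 and 10.2 CPM on the control diet, from which the no-Cys *Cse*+/- mice were called lower (−0.61, edgeR adjusted p = 0.0395), though not without av01, av02, av03, av19 or av22 (−0.60 to −0.41, edgeR adjusted p between 0.0505 and 0.575). *Ppat*, which starts purine synthesis, was called lower (−0.51, edgeR adjusted p = 0.00273), at 31.9 ± 2.03 CPM in no-Cys *Cse*-/- against 45.4 ± 8.43 CPM in no-Cys *Cse*+/- mice. The latter were called higher than the control diet (0.68, edgeR adjusted p = 0.0138), at 26.4 and 30.2 CPM, a call lost without either control mouse (edgeR adjusted p = 0.139 and 0.135). The means of the other groups were 27.9 to 33.7 CPM. *Aox1* was also higher under BSO than on the no-Trp diet alone (1.30, edgeR adjusted p = 0.00216) and passed the interaction test (1.10, edgeR adjusted p = 0.0233). In the 7 genes of lipoate synthesis and lipoylated proteins, which depend on NFU1 and FDX1 for their cofactor, *Dbt*, a subunit of the branched-chain ketoacid dehydrogenase, was the 1 called higher, against 11.6% of all genes (0.40, edgeR adjusted p = 0.0277). The call was lost without av02 or av04 (edgeR adjusted p = 0.0582 and 0.0907). *Dbt* was at 113 ± 2.53 CPM in no-Cys *Cse*-/- and 85.6 ± 12.5 CPM in no-Cys *Cse*+/- mice, and at 112 and 116 CPM on the control diet, with a log2 fold change of −0.41 between the diets in *Cse*+/- mice (edgeR adjusted p = 0.177). *Lias*, the lipoate synthase that uses these clusters, had a log2 fold change of 0.04 (edgeR adjusted p = 0.772). In the main comparison none of 7 sulfur relay genes was called by edgeR, none had groups that did not overlap, and DESeq2 called 1 higher. Between no-Cys and no-Trp *Cse*-/- mice, edgeR called 10.4% of all genes. From these downstream lists *Aox1* (1.22), *Tyw1* (0.51), *Abce1* (0.46) and *Mocs1* (0.30) were called higher on the no-Cys diet. *Dpyd* (−0.52), *Ciapin1* (−0.37), *Gcsh* (−0.29) and the sulfur relay gene *Tst* (−0.38) were called lower there.

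Across the 20 livers, the genes whose log2 CPM followed that of *Nfs1* most closely, among 7845 genes with a mean of at least 10 CPM, were *Pdia5*, *Stap2* and *Hdac1* (Pearson r of 0.74, 0.69 and 0.68). Those nearest to *Iscu* were *Capzb*, *Cfl1* and *Pdia6* (0.81, 0.75 and 0.71). As all values come from the same libraries and scaling factors, these are given as a description.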

How the data were processed

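Livers of 20 mice were profiled by paired-end sequencing of poly(A) RNA (NEBNext Ultra kit). The authors aligned reads to GRCm38 with HISAT2 2.1.0 and deposited raw counts per gene from HTSeq 0.11.0, without normalization. The annotation release and the strand setting are not given in the sources used here, so that overlapping or antisense genes may not be separated. Columns were assigned to groups through the study's list of mice, and 1 column of the table was not used.

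Of 46078 genes, 14759 passed edgeR's filterByExpr (minimum count 10, minimum total 15). They were fitted together with edgeR 4.0.16 (R 4.3.3), TMM factors and 1 mean per group over 20 libraries, and quasi-likelihood tests were adjusted by Benjamini-Hochberg over all genes tested, with a threshold of 0.05. Standard errors and 95% intervals come from the same F statistics. The 8 comparisons share groups of mice. CPM per kilobase divides by the exon length of GENCODE M21, and shared 61-base words were counted in its transcripts. Library totals ran from 11785740 to 57986121 (median 15252745), and precision is lowest for low counts such as those of *Lyrm4*. Each mouse is 1 library. No pair of replicates was a duplicate, as all 25 pairs differed beyond counting noise (chi-square per gene 9.60 to 64.2). The self-test ran the fit on simulated data. Alternatives were DESeq2 1.42.0, other factors, other filters, a threshold of 0.01, fits of only the groups compared, thinning to the shallowest library, and leaving out each mouse.

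Members, gene lists and tests were chosen with earlier results of these data known. From each list, genes were named when they were called in the main comparison with groups that did not overlap, all of them where there were at most 6 and otherwise the 3 highest and 3 lowest fold changes. Some genes counted in the lists are not reported here by name. Others named were chosen after their values were seen. For *Nfs1* and *Iscu*, the 3 genes with the highest Pearson r were named.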

Additional observations from a re-analysis of the deposited data

Results flagged for a closer look

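Among 72 sets of 4 mice checked for a member or a named gene, 7 had a mouse far from the other 3 by Dixon's criterion (the gap to the nearest mouse over the range of the group, given below), which chance gives in about 1 in 20 sets. Mouse av10, given BSO on the no-Trp diet, accounted for 3 of them. It was lowest for *Isca1* at 44.08 CPM, the other 3 reaching up to 52.02 CPM (ratio 0.850), highest for *Fdx1* at 128.7 CPM in a group that began at 108.9 CPM (0.836), and lowest for *Aox1* at 73.02 CPM in a group that reached 156.2 CPM (0.904). Without av10 the log2 fold change of *Fdx1* between the no-Cys diet and BSO was −0.30 (edgeR adjusted p = 0.422). In *Cse*+/- mice without dietary cysteine, av03 was lowest for *Aox1* at 44.25 CPM (0.844) and av04 highest for *Ercc2* at 6.227 CPM (0.859). For *Cth*, the gene deleted in *Cse*-/- mice, av01 of that group was highest at 331.9 CPM, in a group that began at 120.6 CPM (0.948), and av08 was highest among no-Cys *Cse*-/- mice at 13.28 CPM, in a group that began at 6.374 CPM (0.904).

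The genotype difference was called as differing between the diets for 3 named genes, by the interaction term of the edgeR fit, which called 4.36% of all genes. These genes were named for their call between genotypes on the no-Cys diet, and that difference is itself part of the interaction. *Hspa9* differed by 0.8244 (edgeR adjusted p = 0.00993), with 4 of 4 *Cse*-/- mice above every *Cse*+/- mouse when cysteine was missing. On the no-Trp diet the *Cse*-/- mice, at 658.2 to 840.3 CPM, also lay above every *Cse*+/- mouse, at 600.8 to 650.6 CPM. The genotype difference there was 0.30 (edgeR adjusted p = 0.220). *Slc25a28* differed by 0.5233 (edgeR adjusted p = 0.0363) and *Aox1* by 1.096 (edgeR adjusted p = 0.0233).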

How the results depend on the processing

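*Fdx1* was called in 21 of 28 alternatives in each of the comparisons of no-Cys *Cse*-/- mice with *Cse*+/- and with no-Trp *Cse*-/- mice, with the same direction in all. The other 7 members gave 1 call in 1568 values. The number of members called was 0 in both comparisons with an adjusted p under 0.01 and in fits of only the groups compared. Leaving out 1 mouse gave 0 to 1 members in these comparisons, in that of no-Cys with BSO and in the interaction. In the main comparison, the threshold of 0.01 left 4 of the 6 other mitochondrial genes, 0 cytosolic assembly genes, 1 mitochondrial Fe–S protein, 2 cytosolic or nuclear Fe–S proteins and 0 lipoate genes called higher. Without a filter 0 cytosolic assembly genes were higher, with a mean CPM of at least 1 there was 1 lower, and with DESeq2 1 sulfur relay gene was higher. Leaving out 1 mouse gave 5 to 6 other mitochondrial genes higher, 0 to 1 cytosolic assembly genes lower, 1 to 3 mitochondrial and 3 to 6 cytosolic or nuclear Fe–S proteins higher, 2 to 4 of the latter lower, 0 to 1 lipoate genes higher and 0 to 1 lower, and 0 to 1 sulfur relay genes higher and 0 to 2 lower. Of the 64 values of a member in a comparison, 31 took both signs over the alternatives, and 0 of these were called in any. Those that changed sign without 1 mouse include *Iscu* in the main comparison (−0.079 to 0.0092), *Fdx1* (−0.049 to 0.18) and *Lyrm4* (−0.31 to 0.051) between genotypes on the no-Trp diet, *Fdx1* between no-Trp and control diets (−0.23 to 0.020), and *Lyrm4* in the interaction (−0.29 to 0.062). *Lias* did so too in the main comparison (−0.015 to 0.092). The cause was not tested. No paired analysis was possible because the columns of the count table carry mouse numbers and not the replicate numbers of the labels. Low counts limit *Lyrm4*, and the control group of 2 mice limits both diet comparisons in *Cse*+/- mice.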
